A study of Homo sapiens with 15 samples.

Results

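C42B cells grown for 3 days were exposed for 6 h to PF-543 or to vehicle, and the 6 arrays of those cells are compared here, out of 15 arrays in the series. C42B is an established line of human prostate cancer derived from LNCaP, so all arrays share one genetic background. The vehicle group (3 arrays) had 0.125% dimethyl sulfoxide (DMSO) and the PF-543 group (3 arrays) had 15 µM PF-543, an inhibitor of sphingosine kinase 1. Both had medium with 10% serum, and the DMSO content of the treated wells is not recorded. For reference, the remaining 9 arrays were of cells given 10 µM enzalutamide, an androgen receptor antagonist (2 arrays), 15 µM ABC294640, a second sphingosine kinase inhibitor also called opaganib (1 array), enzalutamide with PF-543 (3 arrays) or enzalutamide with ABC294640 (3 arrays), at the same doses and time. Of 21448 probe sets on the whole-transcript Affymetrix array, those with 1 gene symbol were taken, with the highest-mean probe set for each gene, which gave 17687 genes. Values are log2 signals after RMA (robust multi-array average), so a difference of 1 is a 2-fold change. Nothing in the labels tells whether the replicates of a group came from different cultures. The p-values therefore reflect a scatter between arrays that could be technical, and the number of arrays limits the precision.

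Sphingosine kinase 1 phosphorylates sphingosine to sphingosine 1-phosphate (S1P), a lipid that acts on cell-surface receptors. Sphingosine in turn comes from ceramide. Cells sense their membrane sterol through SCAP and the INSIG proteins. When endoplasmic reticulum sterol falls, SCAP carries the SREBP transcription factors to the Golgi for cleavage, and the released factors switch on genes of cholesterol and fatty acid synthesis, INSIG1 among them. Prostate cancer cells are known for active lipid synthesis, part of it under androgen control.

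Markers of the labelled cell type were read on every array, and their levels are given as a description, since the brightness of a probe set depends on its probes. The 9 measured luminal markers of 11 listed, KLK3, KLK2, FOLH1, FOXA1 and HOXB13 among them, had mean signals from 9.99 to 16.21. The 2 measured basal keratins of 3 listed markers lay between 3.81 and 4.65, the 4 neuroendocrine markers measured of 5 between 3.70 and 5.70, and the 11 stromal, endothelial and immune markers measured of 13 between 3.70 and 9.47, with 0 of these markers past the threshold. Summed over the markers, the luminal signal was 123.2 to 123.3 in DMSO and 123.59 to 124.23 with PF-543. The basal sums were 8.02 to 8.31 and 8.58 to 8.84, so neither pair of ranges overlapped. The basal sum rests on KRT5 and KRT14, at percentiles 10.9 and 21.9 of mean signal over all genes. Luminal members differed by -0.18 (KLK3) to 0.38 (TMPRSS2), and 10.2% of all single genes had no overlap upwards. The stromal, endothelial and immune sum was 66.07 to 67.82 in DMSO and 64.79 to 67.12 with PF-543, which overlap, and so did the neuroendocrine sums, 18.41 to 19.54 and 18.57 to 19.05. Array medians lay between 6.71 and 6.76. The DMSO arrays stood apart from the arrays of all 5 treated groups along the first principal component (15.3% of the variance), at 18.9 to 24.8 against -11.6 to 0.03. Gene lists and the genes that led them were therefore also compared with arrays of treated cells alone.

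PF-543 raised 64 genes (0.362% of those tested) and lowered 36 (0.204%) relative to DMSO (limma, Benjamini-Hochberg adjusted p under 0.05 over all genes). The rises were led by enzymes and regulators of lipid synthesis, and the falls by genes with no shared theme among the lists examined. The lists were chosen with earlier results of these data known. For each list count against DMSO below, the background is the share of all genes given above. The PF-543 and DMSO arrays of all 100 genes did not overlap, against 1805 genes (10.2%) without overlap upwards and 1770 (10%) downwards over the whole array. The same arrays chose the 100 genes, so their lack of overlap follows from the choice and is no separate support. At an unadjusted p under 0.05 there were 1339 genes higher and 1394 lower. Their probe sets differed in brightness, which depends on the probes and is no measure of transcript number: the median of the mean log2 signal was 10.17 for the 64 rises, 5.77 for the 36 falls and 7.06 for all genes, with 24 of the 36 falls and 11 of the 64 rises under 7 (49.6% of all genes). The counts depended on single arrays. Without DMSO replicates 1, 2 and 3 in turn the rises numbered 34, 24 and 33 and the falls 21, 5 and 26, and without PF-543 replicates 1, 2 and 3 the rises numbered 24, 22 and 22 and the falls 6, 3 and 10. Past the threshold in all 6 of these fits were 18 rises and 2 falls.

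**Figure D1:**
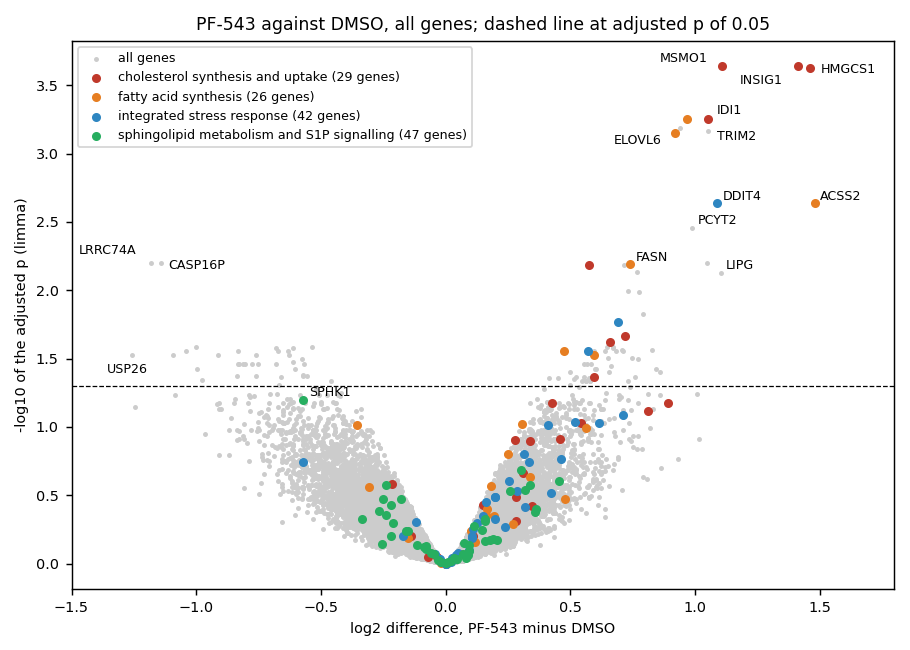
Each point is 1 of 17687 genes, with the log2 difference between PF-543 and DMSO (3 arrays each) on the x axis and -log10 of the limma adjusted p on the y axis. Members of 4 gene lists are coloured and the dashed line marks an adjusted p of 0.05. Cholesterol (red), fatty acid (orange) and stress response genes (blue) above the line all lie on the right, and all sphingolipid genes (green) lie below it.

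The cholesterol genes that rose with PF-543 were INSIG1, the enzymes HMGCS1, IDI1, SQLE, LSS, MSMO1 and DHCR7, and the carrier STARD4. Of 29 measured genes of 36 listed, 8 rose, 0 fell and 21 did not pass, and the median log2 difference was 0.34 against -0.01 over all genes. The counts by role were 1 of 5 SREBP regulators, 2 of 7 mevalonate enzymes, 4 of 10 sterol enzymes and 1 of 7 genes of uptake and transport. The list counted 5 rises without DMSO replicate 2 and 5 without any one of the PF-543 replicates.

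INSIG1, the retention protein of the SREBP complex and itself an SREBP target, measured 13.04, 13.04 and 13.00 in DMSO and 14.59, 14.24 and 14.49 with PF-543. The groups were more than 1 log2 unit apart, and the difference was 1.41 (SE 0.12, limma adjusted p = 0.000228). The other regulators did not pass: SREBF2, the sterol-directed SREBP gene, differed by 0.28, SCAP by 0.00 and INSIG2 by -0.07. MBTPS1, the first protease that cleaves SREBP, was at 10.85, 10.90 and 10.88 in DMSO and at 10.58, 10.65 and 10.75 with PF-543, a difference of -0.22 that also missed the threshold (limma adjusted p = 0.261).

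Among the mevalonate enzymes, HMGCS1, which makes HMG-CoA, measured 11.54, 11.09 and 11.37 in DMSO and 12.86, 12.86 and 12.66 with PF-543. Its lowest PF-543 array lay above its highest DMSO array, with a difference of 1.46 (SE 0.13, limma adjusted p = 0.000236). IDI1, which interconverts the isoprenoid building blocks, measured 13.12, 13.17 and 13.34 against 14.24, 14.26 and 14.29, with PF-543 arrays nearly identical to each other (difference 1.05, SE 0.10, limma adjusted p = 0.000559). MVD, the decarboxylase between them, was higher on all 3 PF-543 arrays (9.61, 9.35 and 10.00 against 8.75, 8.93 and 8.60), yet its difference of 0.89 missed the threshold (SE 0.20, limma adjusted p = 0.0665). PMVK, the kinase before it, went the other way by -0.14 with overlapping arrays, and FDPS, which makes farnesyl diphosphate, differed by 0.28 (limma adjusted p = 0.126).

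Among the sterol enzymes, MSMO1, a methylsterol monooxygenase, measured 14.10, 14.09 and 14.07 in DMSO and 15.17, 15.22 and 15.19 with PF-543. Arrays within each group lay within 0.05 of each other, and the difference was 1.11 (SE 0.09, limma adjusted p = 0.000228). LSS, the cyclase that forms lanosterol, measured 10.78, 10.55 and 10.87 against 11.42, 11.36 and 11.40 (difference 0.66, SE 0.11, limma adjusted p = 0.0240). SQLE, which oxidises squalene in a rate-limiting step, went from 10.90, 10.99 and 10.82 to 11.43, 11.47 and 11.60 (difference 0.60, limma adjusted p = 0.0429), and its call was lost on leaving out any one of the 6 arrays, with adjusted p from 0.0844 to 0.126. DHCR7, which makes cholesterol from its immediate precursor, rose from 14.70, 14.63 and 14.57 to 15.17, 15.26 and 15.20 (difference 0.58, SE 0.08, limma adjusted p = 0.00651). HSD17B7, a sterol ketoreductase, differed by 0.81 with no overlap (9.29, 9.70 and 9.22 against 10.39, 9.93 and 10.33), short of the threshold at a limma adjusted p of 0.0768. EBP and NSDHL, 2 further enzymes of the same branch, differed by 0.00 and 0.01.

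Of the uptake and transport genes, STARD4, a carrier of cholesterol between membranes, rose from 9.26, 9.07 and 9.21 to 9.91, 9.90 and 9.89 (difference 0.72, SE 0.11, limma adjusted p = 0.0217). The calls of STARD4 and LSS held in 2 of the 6 fits without an array. All 7 genes of this group lay above 0, from 0.03 for the sterol esterifying enzyme SOAT1 to the 0.72 of STARD4. The 7 measured targets of LXR, the receptor that answers to sterol excess, gave 0 calls and a median of -0.09, with ABCA1, the cholesterol exporter, at 0.17 and ABCG1 at -0.16.

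The promoters of the 4 lipid genes with the largest rises are printed because sterol-regulated promoters are known to pair SREBP sites with a CCAAT box bound by NF-Y. Each runs over the 250 bases before the first RefSeq start listed for the gene (GRCh38.p14), 5′ to 3′ on the gene's strand. Where several starts are listed, which of them C42B cells use is not known, and the sequences and motif shares hold for the first start only. Capitals mark CCAAT or its reverse complement ATTGG and the E-box TCACGTGA, which SREBP-1 can bind. ACSS2 lies at chr20:34874739-34874988 (plus strand), HMGCS1 at chr5:43313413-43313662 (minus strand), INSIG1 at chr7:155297628-155297877 (plus strand) and MSMO1 at chr4:165327419-165327668 (plus strand).
ACSS2: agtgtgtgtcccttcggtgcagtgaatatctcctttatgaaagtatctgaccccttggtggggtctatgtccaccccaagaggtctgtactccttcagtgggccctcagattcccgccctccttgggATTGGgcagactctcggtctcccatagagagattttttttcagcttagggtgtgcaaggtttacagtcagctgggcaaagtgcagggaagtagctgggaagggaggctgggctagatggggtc
HMGCS1: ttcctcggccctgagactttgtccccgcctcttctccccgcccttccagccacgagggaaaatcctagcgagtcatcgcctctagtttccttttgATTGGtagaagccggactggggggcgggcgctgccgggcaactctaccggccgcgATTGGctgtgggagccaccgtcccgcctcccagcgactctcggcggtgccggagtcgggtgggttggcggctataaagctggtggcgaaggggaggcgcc
INSIG1: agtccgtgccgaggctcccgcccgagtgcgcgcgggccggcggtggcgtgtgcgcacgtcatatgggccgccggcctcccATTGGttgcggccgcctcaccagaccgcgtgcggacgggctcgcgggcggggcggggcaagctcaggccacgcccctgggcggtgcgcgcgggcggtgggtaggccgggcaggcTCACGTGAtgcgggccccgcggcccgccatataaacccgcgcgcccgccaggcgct
MSMO1: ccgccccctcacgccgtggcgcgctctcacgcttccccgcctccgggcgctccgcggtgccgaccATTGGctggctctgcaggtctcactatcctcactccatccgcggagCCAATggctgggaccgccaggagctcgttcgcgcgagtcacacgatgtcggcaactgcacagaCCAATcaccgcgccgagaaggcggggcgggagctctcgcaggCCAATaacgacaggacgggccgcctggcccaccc
CCAAT, read on both strands, occurred 1 time before ACSS2, 2 times before HMGCS1, 1 time before INSIG1 and 4 times before MSMO1. The windows of LIPG and IDI1, the lipid genes next in size, held 1 and 0. Over the promoters found in the RefSeq table, CCAAT was present in 27 of 50 rises (54%), in 10 of 28 falls (35.7%), in 8 of the 12 cholesterol and fatty acid genes that rose (66.7%) and in 34.6% of 14250 genes. TCACGTGA was in 4 of the 50 rises (8%: INSIG1, GALNS, SLC25A36 and TCEAL8), in 0 of the 28 falls and in 1.25% of all promoters. Among the 12 cholesterol and fatty acid genes that rose, only INSIG1 held it (1 of 12, 8.33%). The SREBP element TCACNCCAC was in 0 of the 50 and in 0.898% of all. Base composition also differed, with a median GC content of 70.2% for the rises, 58.8% for the falls and 62.4% for all promoters, and its part in the motif shares was not tested. None of the 3 motifs contains another. A match describes these letters in this window and is not a measured binding site.

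The fatty acid genes that rose were ACSS2, ME1, FASN, ELOVL6, SCD and ACSL1. Of 26 measured genes of 31 listed, 6 rose, 0 fell and 20 did not pass (median log2 difference 0.19). ACSS2, which turns acetate into acetyl-CoA, measured 9.10, 8.78 and 8.37 in DMSO and 10.18, 10.18 and 10.33 with PF-543. The DMSO arrays were the more scattered, and the difference of 1.48 was the largest rise among the 17687 genes tested (SE 0.17, limma adjusted p = 0.00231). FASN, the fatty acid synthase, rose from 14.07, 13.88 and 13.92 to 14.80, 14.71 and 14.58 (difference 0.74, SE 0.10, limma adjusted p = 0.00648). ME1, a malic enzyme that supplies NADPH, went from 12.30, 12.43 and 12.18 to 13.00, 12.86 and 12.84 (difference 0.60, limma adjusted p = 0.0297). ACLY and ACACA, the cytosolic citrate lyase and the carboxylase before FASN, differed by 0.31 and 0.34 without passing, with no overlap between groups for either.

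Downstream of the synthase, ELOVL6, which lengthens palmitate, measured 9.90, 10.14 and 10.05 in DMSO and 10.98, 10.92 and 10.95 with PF-543 (difference 0.92, SE 0.10, limma adjusted p = 0.000705). SCD, the desaturase that makes oleate, rose less, from 15.14, 15.31 and 15.16 to 15.66, 15.75 and 15.63 (difference 0.48, SE 0.08, limma adjusted p = 0.0279). ACSL1, which couples fatty acids to coenzyme A, rose from 12.12, 12.11 and 12.10 to 13.10, 13.02 and 13.11 (difference 0.97, SE 0.09, limma adjusted p = 0.000559). The gap between its groups was far wider than the scatter within either. DGAT2, which makes triglyceride, was lower on each PF-543 array (12.29, 12.39 and 12.25 against 12.61, 12.75 and 12.64), with a difference of -0.36 that missed the threshold (limma adjusted p = 0.0961). The regulators SREBF1 and MLXIPL differed by 0.16 and 0.07, and neither passed. MLXIP, a glucose-sensing relative of MLXIPL outside this list, rose from 7.64, 7.80 and 7.63 to 8.43, 8.69 and 8.28 (difference 0.78, SE 0.11, limma adjusted p = 0.0103). SCD was past the threshold in 1 of the 6 fits that left out an array, and ME1 in 0.

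**Figure D2:**
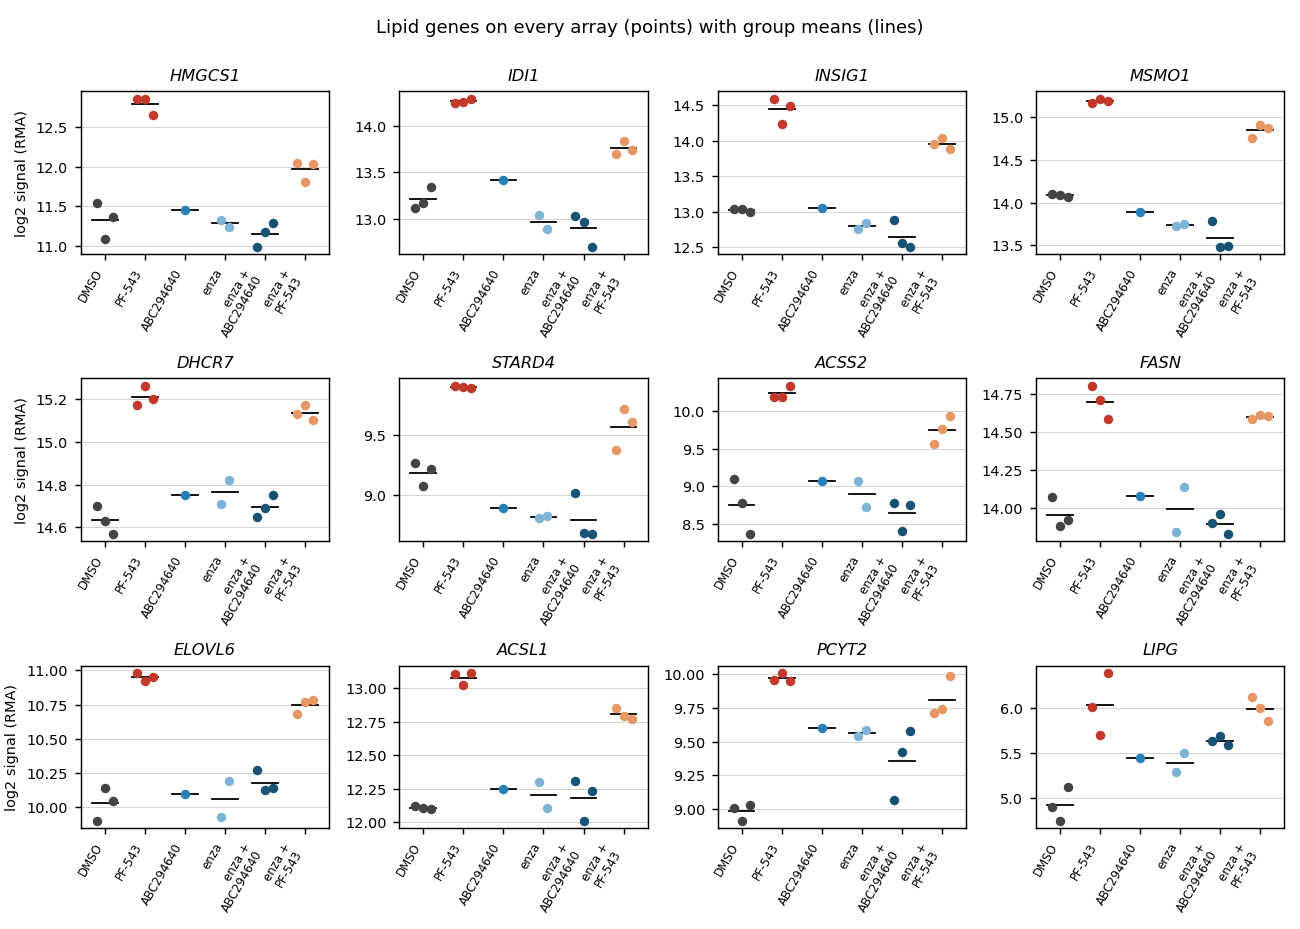
Points are the log2 RMA signals of 12 lipid genes that rose, on all 15 arrays by group, and lines are group means; y axes differ between panels and do not start at 0. The PF-543 arrays (red) lie above every DMSO array in all 12 panels, and the enzalutamide plus PF-543 arrays (light orange) above every array without PF-543.

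Of the phospholipid genes, PCYT2 and LIPG rose. Of 29 measured genes of 32 listed, 2 rose and 0 fell, with a median of 0.05. PCYT2, the rate-limiting enzyme of phosphatidylethanolamine synthesis, measured 9.01, 8.91 and 9.03 in DMSO and 9.96, 10.01 and 9.95 with PF-543 (difference 0.99, SE 0.12, limma adjusted p = 0.00348). Its counterparts for phosphatidylcholine, PCYT1A and PCYT1B, differed by -0.05 and -0.03. LIPG, endothelial lipase, a secreted phospholipase, measured 4.91, 4.75 and 5.12 against 6.01, 5.70 and 6.38 (difference 1.10, SE 0.15, limma adjusted p = 0.00746). CHKA, choline kinase, was higher on all PF-543 arrays (11.93, 12.02 and 12.00 against 11.19, 11.58 and 11.54) and differed by 0.55 (limma adjusted p = 0.0636). LPCAT2, which remodels phosphatidylcholine, differed by -0.33 with overlapping arrays. LIPE, at -0.17, and PLA2G6, at 0.43, also overlapped between the groups.

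The genes nearest to the drug's target gave no call. Of 47 measured genes of sphingolipid metabolism and S1P signalling (54 listed), 0 passed in either direction, 26 lay above 0 and 21 below, and the median was 0.02. SPHK1, the gene of the target enzyme, measured 8.05, 8.0 and 7.93 in DMSO and 7.64, 7.24 and 7.39 with PF-543. The groups did not overlap, and the difference of -0.57 (95% interval -0.84 to -0.30) was the most negative of the list, short of the threshold at a limma adjusted p of 0.0636. The fall of SPHK1 passed in 2 of 6 other settings of the fit and in 0 of the 6 fits without an array. The transcript says nothing of the enzyme's activity, which was not measured. SGPP1, a phosphatase that returns S1P to sphingosine, was at 10.67, 10.53 and 10.54 against 10.87, 10.98 and 10.80, a difference of 0.30 (limma adjusted p = 0.206), and the lyase SGPL1 differed by 0.05. The 5 S1P receptors differed by -0.22 (S1PR5) to 0.36 (S1PR3), and 0 of them passed. The 6 measured receptor and transport genes had dim probe sets, with mean signals from 3.39 to 5.92 against a median of 7.06 over all genes. Whether they stood above background was not judged. Ceramide synthesis was flat by median (0.01 over 15 genes), with the palmitoyltransferase subunits SPTLC1 and SPTLC2 at -0.06 and 0.03 and the desaturase DEGS1 at 0.16. Of the ceramidases, ACER3 differed by 0.34 with no overlap (limma adjusted p = 0.265) and ACER1 by -0.33. UGCG, which glucosylates ceramide, had the largest positive difference of the list at 0.46, with overlapping arrays (7.02, 6.45 and 6.35 against 6.75, 7.04 and 7.40). SGMS2, next in size at 0.36, also had overlapping arrays.

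Genes of the integrated stress response, in which phosphorylated eIF2 raises translation of the factor ATF4, rose in 3 of 42 measured cases. There were 0 falls and the median was 0.12, while over all genes 0.362% rose and 0.204% fell. DDIT4, an inhibitor of mTORC1 signalling, measured 11.94, 11.68 and 11.43 in DMSO and 12.87, 12.60 and 12.85 with PF-543 (difference 1.09, SE 0.13, limma adjusted p = 0.00231). CHAC1, which degrades glutathione, rose from 10.54, 10.63 and 10.71 to 11.31, 11.22 and 11.42 (difference 0.69, SE 0.11, limma adjusted p = 0.0171). PSPH, the last enzyme of serine synthesis, rose from 9.06, 9.14 and 9.23 to 9.66, 9.71 and 9.77 (difference 0.57, SE 0.10, limma adjusted p = 0.0279), and its call held in 1 of the 6 fits without an array, that of CHAC1 in 2. Several other members lay higher on every PF-543 array without passing: the secreted factor GDF15 differed by 0.71 (limma adjusted p = 0.0824), the pseudokinase TRIB3 by 0.62 and the transcription factor ATF3 by 0.52. DDIT3, the factor CHOP, differed by 0.02 and the synthetase ASNS by 0.11. ALDH1L2 went the other way, with the most negative difference of the list at -0.57, and did not pass. Of the 42 members 34 lay above 0 and 7 below, against 8472 and 9168 of all 17687 genes. Of 21 genes of the unfolded protein response of the endoplasmic reticulum, EDEM1, which directs misfolded glycoproteins to degradation, was the only call, at 9.19, 9.30 and 9.28 against 9.94, 10.00 and 9.98 (difference 0.72, SE 0.10, limma adjusted p = 0.00651). The chaperone HSPA5 differed by 0.04 and XBP1 by 0.16.

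Of 18 FOXO targets 2 rose and 0 fell, while over all genes 0.362% rose and 0.204% fell. The median of the list was 0.08, with 13 members above 0 and 5 below. TXNIP had its most negative difference, at -0.55, and did not pass. CCNG2, a cyclin that restrains proliferation and a FOXO target, rose from 9.13, 8.92 and 9.10 to 9.71, 9.91 and 9.83 (difference 0.77, SE 0.11, limma adjusted p = 0.00740). TSC22D3, a glucocorticoid- and FOXO-responsive factor, rose from 10.77, 10.49 and 10.55 to 11.31, 11.44 and 11.44 (difference 0.79, SE 0.12, limma adjusted p = 0.0149). The call of CCNG2 held without any one array, and that of TSC22D3 in 3 of the 6 such fits, lost without DMSO replicate 2 and without PF-543 replicates 2 and 3. Of 18 p53 targets 2 rose and 1 fell. CDKN1A, the inhibitor p21, rose from 8.82, 8.24 and 8.56 to 9.22, 9.30 and 9.41 (difference 0.77, limma adjusted p = 0.0321), and MDM2, the ligase for p53, from 11.29, 11.42 and 11.32 to 11.72, 11.80 and 11.76 (difference 0.42, limma adjusted p = 0.0438). TP53I3, an oxidoreductase, fell from 8.61, 8.98 and 8.41 to 7.89, 7.79 and 8.04 (difference -0.76, limma adjusted p = 0.0299). These 3 calls were lost in at least 5 of the 6 fits that left out an array.

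PRKCH, a diacylglycerol-responsive protein kinase C, was the call among 11 kinases of its family, at 9.64, 9.48 and 9.85 in DMSO and 10.63, 10.81 and 10.68 with PF-543 (difference 1.05, SE 0.14, limma adjusted p = 0.00636). TRIM2, a ubiquitin ligase, measured 9.25, 9.30 and 9.28 against 10.37, 10.35 and 10.27 (difference 1.05, SE 0.11, limma adjusted p = 0.000685). BAIAP2, an adaptor that shapes actin-rich membrane protrusions, rose from 11.81, 11.84 and 11.74 to 12.57, 12.82 and 12.82 (difference 0.94, SE 0.09, limma adjusted p = 0.000654). The groups of all 3 genes were well separated, and the calls held without any one array. PLA2G3, a secreted phospholipase A2, went from 5.02, 4.81 and 5.02 to 5.84, 5.80 and 5.79 (difference 0.86, limma adjusted p = 0.0393), and PGAM4, a copy of a glycolytic mutase gene, from 5.43, 5.09 and 5.26 to 5.75, 6.23 and 6.33 (difference 0.84, limma adjusted p = 0.0379). The call of PLA2G3 held in 0 of the 6 fits without an array and that of PGAM4 in 1. PGAM4 is nearly identical to its parent gene, so its probes may read both. In all, 39 of the 64 rises belonged to no list. Named from these after their values were seen, HIF1A, the oxygen-responsive factor, rose by 0.45 (13.55, 13.54 and 13.51 against 13.94, 14.02 and 13.99), SLC25A36, a mitochondrial pyrimidine nucleotide carrier, by 0.73 and PANK3, which starts coenzyme A synthesis, by 0.58 (limma adjusted p = 0.0438, 0.0102 and 0.0464). The calls of HIF1A and PANK3 held in 0 of the 6 fits without an array and that of SLC25A36 in 5.

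**Figure D3:**
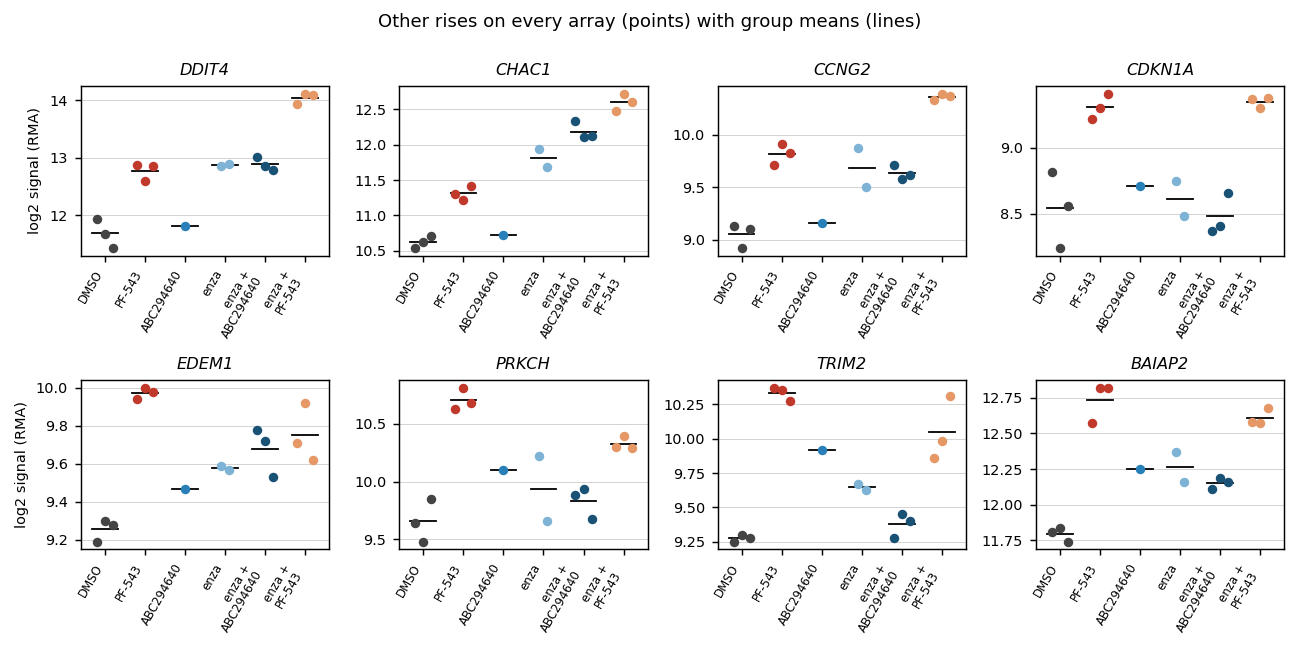
Points are the log2 RMA signals of 8 further genes that rose, on all 15 arrays by group, and lines are group means; y axes differ between panels and do not start at 0. DDIT4, CHAC1 and CCNG2 are also high on arrays with enzalutamide, while CDKN1A, PRKCH and BAIAP2 are highest on the arrays with PF-543.

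The falls were mostly of genes with dim probe sets. LRRC74A, a leucine-rich repeat gene, fell from 5.95, 5.92 and 5.62 to 4.65, 4.78 and 4.52 (difference -1.18, SE 0.16, limma adjusted p = 0.00636), and CASP16P, a caspase-like pseudogene, from 9.62, 9.88 and 9.53 to 8.36, 8.50 and 8.75 (difference -1.14, SE 0.15, limma adjusted p = 0.00636). These were the 2 falls that held without any one array. USP26, a ubiquitin-specific protease known from the testis, measured 4.75, 5.71 and 5.51 against 4.18, 4.26 and 3.76, with its nearest arrays at 4.75 and 4.26 (difference -1.26, SE 0.22, limma adjusted p = 0.0297). ANKS1B, a neuronal scaffold gene, fell from 6.47, 6.75 and 6.03 to 5.23, 5.40 and 5.34 (difference -1.09, SE 0.19), and ITGA2B, the platelet integrin subunit, from 6.61, 7.0 and 6.68 to 6.08, 5.41 and 5.68 (difference -1.04, SE 0.18). ZFTA, a zinc finger gene, was bright, at 14.38, 14.29 and 14.11 against 13.18, 13.18 and 13.42 (difference -1.0, SE 0.16, limma adjusted p = 0.0260). The limma adjusted p was 0.0297 for ANKS1B and 0.0279 for ITGA2B.

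The 15 largest falls included 9 more genes. CFB, complement factor B, went from 4.36, 4.82 and 4.59 to 3.72, 3.75 and 3.79 (difference -0.84), and CA2, carbonic anhydrase 2, from 6.09, 5.93 and 5.80 to 5.17, 4.84 and 5.33 (difference -0.83). RGMA, a guidance molecule and BMP co-receptor, went from 6.95, 7.26 and 6.99 to 6.16, 6.24 and 6.30 (difference -0.83). None of these 3 held in more than 1 of the 6 fits without an array. The others were RFPL3S (-1.0), ZSCAN5B (-0.98), KRTAP27-1 (-0.91), CCDC116 (-0.83), ITIH2 (-0.81) and CABP4 (-0.80), and the limma adjusted p of the 9 ran from 0.0279 to 0.0455. TP53I3 was the 1 fall among all 633 distinct genes of the 34 lists, and 35 of the 36 falls belonged to none. Among brighter probe sets, RBM15B, an RNA-binding protein of the m6A machinery named after its values were seen, fell by 0.63 (limma adjusted p = 0.0279), a call that held in 1 of the 6 fits.

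**Figure D4:**
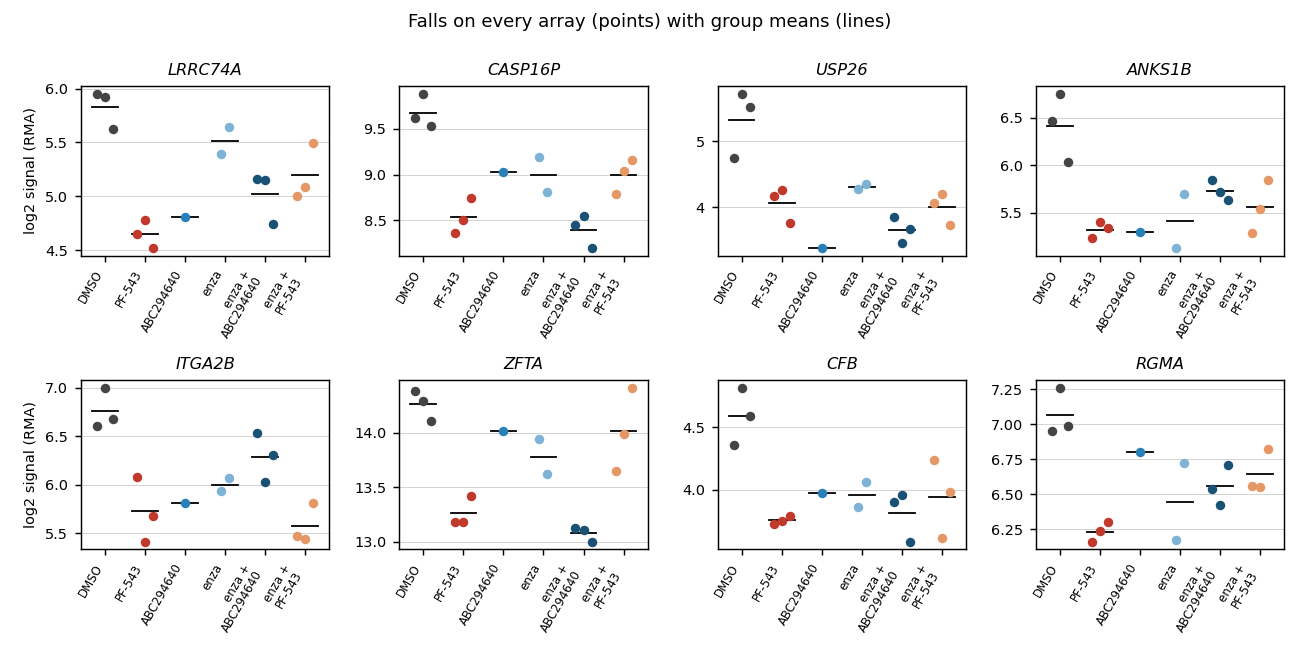
Points are the log2 RMA signals of 8 genes that fell, on all 15 arrays by group, and lines are group means; y axes differ between panels and do not start at 0. In each panel the DMSO arrays lie above the PF-543 arrays, and in 6 of the 8 panels, all but LRRC74A and ZFTA, also above every other array of treated cells.

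For 23 of the 34 lists 0 members passed. The 27 measured androgen-induced genes had a median of 0.07, with KLK3 at -0.18, the serine protease TMPRSS2 at 0.38 (limma adjusted p = 0.0909) and ZBTB16 at 0.08. The androgen-repressed list held 1 call, CCNG2. Immediate early genes (24 measured) had a median of 0.09, and JUND, the AP-1 subunit, came nearest at 7.95, 7.87 and 7.90 against 8.72, 8.44 and 9.0 (difference 0.81, limma adjusted p = 0.0578). Lists for DNA replication (28 genes), mitosis (24), apoptosis regulators (19), heat shock (16), ribosomal proteins (16), glycolysis (17), hypoxia response (16) and interferon-stimulated genes (21) gave 0 calls, with medians from -0.06 to 0.04. HIF1A itself is not a member of the hypoxia list, which holds the factor's targets.

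The signals of the called genes were then ordered over all 15 arrays. For 23 of the 64 rises all 6 arrays of cells given PF-543, alone or with enzalutamide, lay above all 9 others, the DMSO arrays included, against 44 genes on the whole array (0.249%). They included 7 of the 8 cholesterol genes (LSS was the exception) and all 6 fatty acid genes that rose, with PCYT2, LIPG, PRKCH, BAIAP2, CDKN1A, MDM2, TSC22D3, MLXIP, SLC25A36 and TMEM135. The corresponding count for falls was 0 of 36 (12 genes on the array, 0.0678%). On 30 of the 64 rises, DDIT4 not among them but CHAC1, PSPH, EDEM1, CCNG2 and HIF1A included, the DMSO arrays lay below all 12 arrays of treated cells (2.03% of all genes), and on 22 of the 36 falls they lay above all 12 (1.42%). Both orders held for 3 of the rises, LIPG, PCYT2 and BAIAP2, and neither for 14. The same PF-543 and DMSO arrays chose the 64 and 36 genes, so these orders describe the genes and are no separate evidence for them. What set the DMSO arrays apart was not tested.

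The 3 PF-543 arrays lay above all 6 arrays of cells given enzalutamide, ABC294640 or both for 39 of the 64 rises (2.14% of all genes), and below them for 3 of the 36 falls (1.79% of all genes), KRTAP27-1, ITIH2 and SCGB1C2. Tested against those 6 arrays, 24 of the 64 rises were past the threshold in the same direction and 0 of the 36 falls were, beside 78 genes higher (0.441%) and 11 lower (0.0622%) over the whole array. The 3 PF-543 arrays that chose the genes are used again here, so a gene high on them by chance would be high in both, and these counts are not independent support. This reference was chosen after seeing the data, and its 6 arrays carry effects of their own agents, with enzalutamide on 5. In it 12 of 29 cholesterol genes were higher and 0 lower (median 0.35), 5 of 26 fatty acid genes were higher (median 0.19), 0 of 29 phospholipid and 0 of 47 sphingolipid genes passed (medians 0.01 and 0.01), and 10 of 27 androgen-induced genes were higher (median 0.39), against a median of 0.00 over all genes. INSIG1 stood 1.67 above it (limma adjusted p = 2.88e-06), HMGCS1 1.55, MSMO1 1.51, ACSS2 1.43 and STARD4 1.09, values close to or larger than those against DMSO. TRIM2 kept 0.77, and PCYT2 and LIPG 0.51 each, the latter 2 short of the threshold (limma adjusted p = 0.0593 and 0.178). FASN kept 0.74 (limma adjusted p = 0.00100) and CDKN1A 0.75 (0.0132), while SCD (0.35) and MDM2 (0.35) missed the threshold. Of 42 stress response genes 2 were higher and 1 lower. DDIT4 differed by 0.07 and PSPH by -0.01, and neither passed, and CHAC1 was lower with PF-543 than on these arrays, by -0.50 (limma adjusted p = 0.0316). EDEM1 differed by 0.36, CCNG2 by 0.24, TSC22D3 by 0.48, HIF1A by 0.30 and PANK3 by 0.33, with limma adjusted p from 0.0747 to 0.456. SPHK1 differed by -0.34 (limma adjusted p = 0.307) and TP53I3 by -0.27 (limma adjusted p = 0.545). LRRC74A differed by -0.50 and CASP16P by -0.17, and neither passed, while USP26 was at 0.23, above this reference. In all, 3 of the 64 rises and 4 of the 36 falls had the opposite sign here.

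Adding PF-543 to enzalutamide asks the same question in cells with the androgen receptor blocked, with differences from arrays outside the PF-543 and DMSO groups. It raised 5 genes and lowered 0 (0.0283% of those tested; 1385 genes at an unadjusted p under 0.05). They were MSMO1 (1.11), INSIG1 (1.16), DDIT4 (1.17), ATF3 (1.05) and IDI1 (0.80), with limma adjusted p from 0.00160 to 0.0413. Of these 5, 4 had also risen over DMSO. The p-values are not separate from those against DMSO, since limma estimated the spread of each gene from the arrays of all groups. A fit of the enzalutamide and combination arrays alone gave 0 calls, so the recurring calls are not fully separate support. INSIG1 measured 12.76 and 12.84 with enzalutamide and 13.96, 14.04 and 13.88 with both agents. DDIT4 was already at 12.86 and 12.89 with enzalutamide and reached 13.93, 14.11 and 14.09 with both, above every PF-543 array. HMGCS1 moved by 0.68, from 11.33 and 11.24 to 12.05, 11.81 and 12.04, short of the threshold (limma adjusted p = 0.202). The count was 0 without either enzalutamide array and 3, 1 and 2 without the 3 combination arrays in turn.

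The size of the PF-543 effect was then compared between the 2 settings. No gene differed at an adjusted p under 0.05 in limma (0 of 17687, 1428 at an unadjusted p under 0.05, smallest adjusted p = 0.215). The smallest p-values were those of HPCAL1, a neuronal calcium sensor, which differed by 0.30 with PF-543 alone and by -0.75 on top of enzalutamide, and of GPR151 and GDNF-AS1, at -0.49 and -0.57 alone and 0.75 and 0.57 on top of enzalutamide. A missed threshold with 2 to 3 arrays a group does not show that the effects were equal. Where genes raised by PF-543 alone lay in the second setting varied widely, as the plot of both differences shows. On top of enzalutamide PCYT2 differed by 0.25 and TRIM2 by 0.40, and neither passed.

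**Figure D5:**
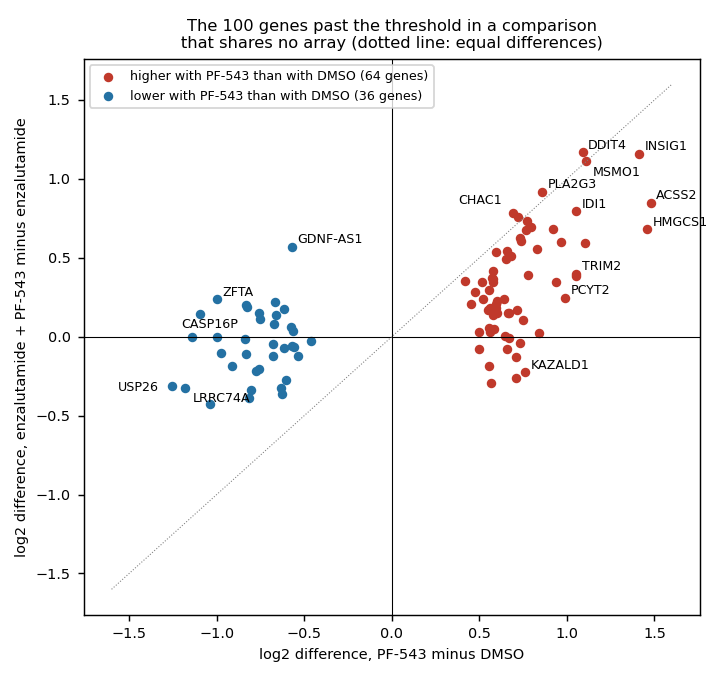
Each point is 1 of the 100 genes past the threshold for PF-543 against DMSO (x axis, log2 difference); the y axis gives the log2 difference between enzalutamide plus PF-543 and enzalutamide alone, from arrays that are not used on the x axis. The lipid genes INSIG1, MSMO1, ACSS2, IDI1 and HMGCS1 lie far up on the right, while the falls (blue) scatter around 0 on the y axis.

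Set directly against enzalutamide alone, PF-543 gave 69 calls (0.39% of genes), 56 higher (0.317%) and 13 lower (0.0735%). The largest were SNAI2, a repressor of epithelial genes (2.92), the androgen-regulated C1orf116 (2.78), ZBTB16 (2.40), the Cdc42 effector CDC42EP3 (2.06) and the transcription factor KLF5 (1.88), with limma adjusted p from 1.24e-07 to 0.00117. These 5 differed from DMSO by 0.93, 0.23, 0.08, 0.10 and 0.33 with PF-543, and 0 of them passed there. C1orf116, for one, measured 12.94, 12.97 and 12.89 with PF-543, 12.58, 12.76 and 12.78 in DMSO and 10.21 and 10.10 with enzalutamide. Lower with PF-543 were LDHC, a germ-cell lactate dehydrogenase (-0.94), the protease MEP1B (-0.93), the potassium channel KCNK5 (-0.89), BAMBI, a decoy receptor for TGF-beta ligands (-0.82), and the kinase PRKD1 (-0.72), with limma adjusted p from 0.00350 to 0.0489. Of the 64 genes that rose over DMSO, 14 also passed here and of the 36 falls 0 did. The 3 PF-543 arrays are shared by both comparisons, so this overlap is no separate support, and the share of all genes higher here is the 0.317% above. INSIG1 (1.64), HMGCS1 (1.51), MSMO1 (1.46), ACSS2 (1.33), IDI1 (1.30) and STARD4 (1.09) led them, and MVD and HSD17B7, which had missed the threshold against DMSO, passed at 1.16 and 1.10 (limma adjusted p = 0.0468 and 0.0489). The higher genes numbered 32 and 24 without enzalutamide replicates 1 and 2 and 32 without PF-543 replicate 2, and the lower ones 4 to 8 on leaving out any one array of the 2 groups.

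ABC294640 was given at the same 15 µM for the same 6 h, on 1 array. The spread of that group is unknown and was assumed to be that of the other groups, so the p-values below rest on this assumption and compare PF-543 with that array. PF-543 exceeded it for 3 genes, all of the cholesterol list (0.017% of those tested), and 0 were lower (998 genes at an unadjusted p under 0.05 in limma). INSIG1 measured 13.06 with ABC294640, 1.38 below the PF-543 mean (limma adjusted p = 0.0129). HMGCS1 was at 11.45 (difference 1.34, limma adjusted p = 0.0295) and MSMO1 at 13.89 (difference 1.30, limma adjusted p = 0.00384). The first lay within the range of the DMSO arrays (11.09 to 11.54) and the second below theirs (14.07 to 14.10). Without PF-543 replicate 1 the count was 1. SPHK1 measured 7.41 with ABC294640, within the range of the PF-543 arrays.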

How the data were processed

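Gene expression in C42B cells was measured on 15 whole-transcript Affymetrix arrays from 100 ng of RNA. The deposited values are log2 signals per probe set that the authors made with RMA in Transcriptome Analysis Console 4.02, per the submitters' processing notes. RMA makes array distributions alike, which hides a shift common to most genes. The columns of all 15 arrays were used. No probe set was judged against background, because detection calls were not used here. For the probe sets, a genome build was not given in the sources used here.

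Of 21448 probe sets 17709 had 1 symbol in the platform annotation and 3739 were unnamed here, and 17687 genes were tested. Group means over all 15 arrays were estimated with limma 3.58.1 (R 4.3.3) with 9 residual and 3.82 prior degrees of freedom, and p-values were adjusted over all genes in each contrast (threshold 0.05). The fit was checked on simulated data for unbiased estimates, interval coverage and false calls, with limits revised after a first result was seen. The simulation drew independent normal values, and nothing is drawn from it here about how many changes were missed. Genes named are the 15 largest rises and falls, list members past the threshold, SPHK1, the 2 largest members of each lipid list per direction that missed it, and the leading genes of the other contrasts. Further genes were named after their values were seen. The genes and the 34 lists (743 members, 660 measured) were chosen with earlier results of these data known. Alternatives were other normalizations, a dim-gene filter, another prior, smaller fits, a replicate block, all probe sets, a fold minimum and leaving out each array. Promoters are from RefSeq (GRCh38.p14), 14250 genes matched, first entry of each. Figures used matplotlib 3.10.9 in Python 3.11.15.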

Additional observations from a re-analysis of the deposited data

How the results depend on the processing

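The counts of 64 rises and 36 falls depended on how the spread was estimated. They became 356 and 191 with a robust and trended prior, 115 and 62 without the dimmest 25% of genes, 8 and 1 in a fit of the 6 arrays alone, and 9 and 6 with a minimum of 2-fold. Quantile normalization left 22 falls, and the 6 arrays of other agents as reference, added after seeing the data, gave 11 genes lower. Cholesterol rises (8) became 15, 4 and 4, and fatty acid rises (6) became 10, 2 and 1, under the prior, the smaller fit and the fold minimum. Leaving out 1 array gave 22 to 34 rises, 3 to 26 falls, 5 to 7 cholesterol and 4 to 5 fatty acid rises.

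For PF-543 on top of enzalutamide (5) the count was 8 without dim genes, 47 under the prior, 0 in the smaller fit, 8 over all probe sets and 0 to 3 without 1 array. The difference of the effects (0) gave 12 under the prior and 0 to 0 without 1 array. PF-543 against enzalutamide (56 higher, 13 lower) gave 85 and 23 without dim genes, 184 and 56 under the prior, 13 and 0 in the smaller fit, 24 and 0 with the fold minimum, 8 lower over all probe sets, and 24 to 43 higher and 4 to 8 lower without 1 array. Against ABC294640 (3) there were 5 without dim genes, 18 under the prior, 5 over all probe sets and 1 to 3 without 1 array.

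With the replicate number as a block, 34 genes rose and 12 fell, 3 passed on top of enzalutamide and 6 were lower than with enzalutamide. DMSO and PF-543 arrays with the same number did not deviate together over all genes, with correlations of -0.0049, -0.0107 and -0.00017. The other groups were not examined, and a pairing that touches few genes would not show here. Whether the numbers pair the samples is therefore not settled.

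With DMSO as the reference, in all the settings fitted, HMGCS1, INSIG1, MSMO1, TRIM2, IDI1, PCYT2, ACSL1, ELOVL6 and LRRC74A stayed past the threshold (no fold minimum was applied to single genes), and 0 of the genes that passed changed direction. Against the 6 arrays of other agents PCYT2 and LRRC74A missed the threshold (limma adjusted p = 0.0593 and 0.194), and 3 rises and 4 falls changed sign, USP26 (0.23), CHAC1 (-0.50) and PSPH (-0.01) among them. Vehicle and agent cannot be told apart in contrasts with DMSO, since the DMSO content of treated wells is not recorded. Signal over background was not judged, and 24 of the 36 falls had a mean under 7.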

Other observations

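Of the 39 rises that belonged to no list, 4 are given here, chosen after their values were seen. LGR4, a receptor that strengthens Wnt signalling, measured 8.19, 8.30 and 8.27 in DMSO and 9.03, 8.96 and 8.78 with PF-543 (difference 0.67, limma adjusted p = 0.0263). PRSS8, an epithelial membrane protease, rose from 12.12, 12.10 and 12.23 to 12.81, 12.79 and 12.80 (difference 0.65, limma adjusted p = 0.0312). KDM4B, a histone demethylase that acts as an androgen receptor coactivator, rose from 7.41, 7.42 and 7.37 to 8.15, 7.95 and 7.80 (difference 0.57, limma adjusted p = 0.0344). TRIM24, another such coactivator, rose from 11.77, 11.71 and 11.98 to 12.29, 12.53 and 12.45 (difference 0.60, limma adjusted p = 0.0379). The arrays of both groups were separate for each gene, yet the calls held in at most 1 of the 6 fits that left out an array. Against the 6 arrays of other agents LGR4 differed by 0.48 and KDM4B by 0.42, and PRSS8 by 0.42 and TRIM24 by 0.19, with 0 of the 4 past the threshold.

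Lysosome and autophagy genes gave 0 calls among 31 measured, with a median of 0.04. MAP1LC3B, which marks autophagosomes, differed by 0.47 with no overlap (9.24, 9.76 and 9.81 against 9.85, 10.17 and 10.19, limma adjusted p = 0.206), and TFE3, a factor that drives lysosomal genes, by 0.34 (limma adjusted p = 0.117). CTSL, a lysosomal protease, differed by -0.32 with no overlap (limma adjusted p = 0.171). Metallothionein and zinc genes (11 measured) had a median of 0.13 and 0 calls, with MT1E at 0.43 (limma adjusted p = 0.141), and probes of this family may read several of its near-identical copies.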
